A study of Homo sapiens with 12 samples.

Results

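The proteasome subunit genes are 32 genes for constitutive subunits of the 26S proteasome, chosen by name: 14 of the 20S core particle (PSMA1 to PSMA7 and PSMB1 to PSMB7) and 18 of the 19S regulatory cap (PSMC1 to PSMC6, 11 PSMD genes and ADRM1). SEM1, a small lid subunit, is not among them. All 32 were found among the 60605 genes of the deposited table and all 32 passed the filter on low counts. The core is a barrel of stacked rings. Its outer rings are built from alpha subunits, which gate the channel, and its inner rings from beta subunits, of which PSMB5, PSMB6 and PSMB7 carry the proteolytic sites. The cap has a base, with a ring of ATPases that unfold the substrate, and a lid, in which PSMD14 removes ubiquitin. In human cells the transcription factor NFE2L1 is known to raise the proteasome genes together when proteasome activity falls short.

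RNA was measured in SBC5, a human small cell lung cancer cell line of wild-type genotype. Olaparib is an inhibitor of the poly(ADP-ribose) polymerases, enzymes of DNA strand break repair. The 4 groups of 3 libraries were vehicle (DMSO with 0 Gy), olaparib (1 µM with 0 Gy), radiation (DMSO with 4 Gy of gamma rays) and combination (1 µM olaparib with 4 Gy). Drug or DMSO was given 2 hours before irradiation, and cells were collected after 3 days. Nothing in the labels says that the replicates came from separate cultures, so p-values measure the spread between these libraries, which may be technical. In these bulk libraries, fewer cells that express a gene and less of its RNA per cell cannot be told apart.

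Of the 12 libraries, olaparib 2, olaparib 3 and radiation 3 stood apart. The transcripts of 404 olfactory receptor genes took 920 to 2098 counts per 1000000 counts of the library (CPM) there and 355 to 501 in the other 9, and the summed level of the 32 members was 826 to 1326 against 1432 to 1686 scaled CPM. These 3 libraries are shown apart and entered no fit unless stated, which left 3 vehicle, 1 olaparib, 2 radiation and 3 combination libraries with 19441478 to 38804959 estimated counts each. Scaled CPM are CPM of a library total that was adjusted by a trimmed mean of M values (TMM). Of the neuroendocrine markers, INSM1, GRP and CHGA held 0 to 12 counts in each of the 9 libraries, NCAM1 and DLL3 1 to 27 and NEUROD1 11 to 83, while SYP averaged 24.1 scaled CPM in vehicle. YAP1, a marker of cells that are not neuroendocrine, averaged 120.3. Of the leukocyte markers, CD3E, CD79A, CD14 and LYZ held 0 to 11 counts in the 9 libraries and 2 to 62 in the 3 shown apart, and PTPRC 16 to 52 and 53 to 211.

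The comparison of combination with vehicle asks what olaparib and radiation did together. Here 8 of the 32 subunit genes fell and 1 rose at an adjusted p under 0.05 (edgeR's quasi-likelihood test, Benjamini-Hochberg adjustment over 30967 genes). The genes that fell were PSMA2, PSMA7, PSMB2, PSMB6 and PSMB7 of the core and PSMC5, PSMD2 and PSMD8 of the cap, and the gene that rose was ADRM1 of the cap. Over all genes tested 3.26% fell and 1.53% rose, and over the 7590 protein-coding genes with a mean of at least 10 CPM, a set that holds all 32 members, 11.9% fell and 4.11% rose. The members' median change was -0.15 on the log2 scale, against 0.02 for all genes tested and -0.05 for that abundant set. Of the 32 changes, 26 were negative, against 14954 of all 30967 genes tested and 8342 of the 16327 protein-coding genes tested. In 10 members every combination library was below every vehicle library and in 1 every one was above, where all genes gave 10.4% and 9.15%.

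**Figure D1:**
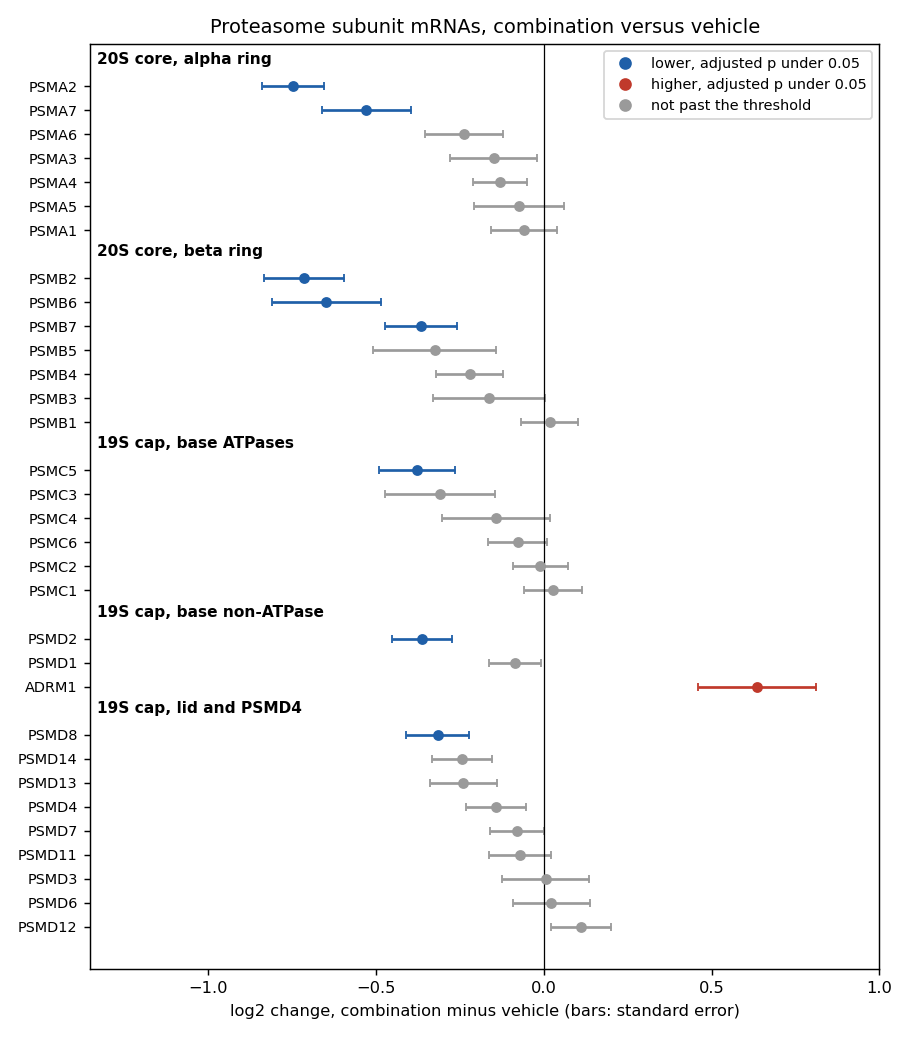
Change of each of the 32 subunit genes between combination and vehicle on the log2 scale (x axis), grouped by its place in the proteasome (y axis), with the standard error as a bar. Blue points fell and the red point rose at an adjusted p under 0.05; PSMA2 and PSMB2 lie farthest to the left and ADRM1 lies to the right of all others.

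The combination libraries were also shallower than the vehicle libraries, with 19441478 to 20566024 against 27007693 to 34103877 counts. Their olfactory receptor level was higher, at 461 to 501 against 355 to 433 CPM, and ribosomal RNA of the mitochondrial genome took 32.9% to 33.4% of their counts against 35.5% to 36.8%. The part of these differences in the members' changes was not tested by a fit of the 9 libraries. With all 12 libraries and the olfactory receptor level as a covariate, PSMA2, PSMB2 and ADRM1 passed the threshold. Of all 31858 genes tested in that fit 455 rose and 374 fell. Its median change was -0.13 for the core and -0.002 for the cap, against -0.23 and -0.08 in the fit of the 9 libraries.

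In the alpha ring, 2 of 7 genes fell and the other 5 had changes between -0.24 and -0.06. PSMA2 read 72.2, 78.9 and 74.9 scaled CPM in the vehicle libraries, 85.8 in the olaparib library, 69.7 and 64.3 in the radiation libraries, and 53.3, 40.2 and 41.2 in the combination libraries. The combination libraries are the lowest and overlap with no other group of the 9. The change from vehicle was -0.75 (SE 0.093, adjusted p = 7.4e-09), or 40.4% less. PSMA7, the other alpha subunit that fell, read 24.3, 24.2 and 26.2 in vehicle, 27.7 in olaparib, 21.9 and 24.1 in radiation and 15.1, 20.1 and 16.5 in combination. Again the combination group lies below all the rest of the 9 libraries, by -0.53 from vehicle (SE 0.13, adjusted p = 0.0069). PSMA6 changed by -0.24 (adjusted p = 0.33), and PSMA3, PSMA4, PSMA5 and PSMA1 had adjusted p of 0.73, 0.52, 0.91 and 0.91.

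In the beta ring 3 of 7 genes fell, among them 2 of the 3 catalytic ones. PSMB2 read 46.6, 35.7 and 42.7 scaled CPM in vehicle, 30.2 in olaparib, 26.8 and 27.6 in radiation and 21.1, 30.5 and 24.5 in combination. Vehicle is alone at the top, and among the 9 libraries those of olaparib and radiation lie within the range of the combination libraries. The change from vehicle to combination was -0.71 (SE 0.12, adjusted p = 1.7e-05). PSMB6, which carries the caspase-like site, read 16.7, 18.1 and 18.5 in vehicle, 18 in olaparib, 18.7 and 12.8 in radiation and 9.40, 12.7 and 11.9 in combination. Its combination libraries all lie below vehicle (change -0.65, SE 0.16, adjusted p = 0.0065), while the 2 radiation libraries lie far apart. PSMB7, which carries the trypsin-like site, read 40.9, 41.5 and 53.6 in vehicle, 43.2 in olaparib, 43.5 and 36.1 in radiation and 37.1, 34.1 and 34.4 in combination. It fell by 0.37 on the log2 scale (SE 0.11, adjusted p = 0.027), and without vehicle replicate 3, the highest library, the change was -0.23 and not past the threshold (adjusted p = 0.40). PSMB5, the chymotrypsin-like subunit and the main target of proteasome inhibitor drugs, read 11.7, 9.09 and 12.9 in vehicle, 15.2 in olaparib, 11.0 and 13.0 in radiation and 8.77, 9.28 and 8.84 in combination. It held 180 to 580 counts in each of the 9 libraries, its vehicle and combination ranges overlap, and its change of -0.32 (SE 0.18) did not pass the test (adjusted p = 0.45). PSMB4 and PSMB3 changed by -0.22 and -0.16 and PSMB1 by 0.02, with adjusted p of 0.25, 0.80 and 0.98.

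**Figure D2:**
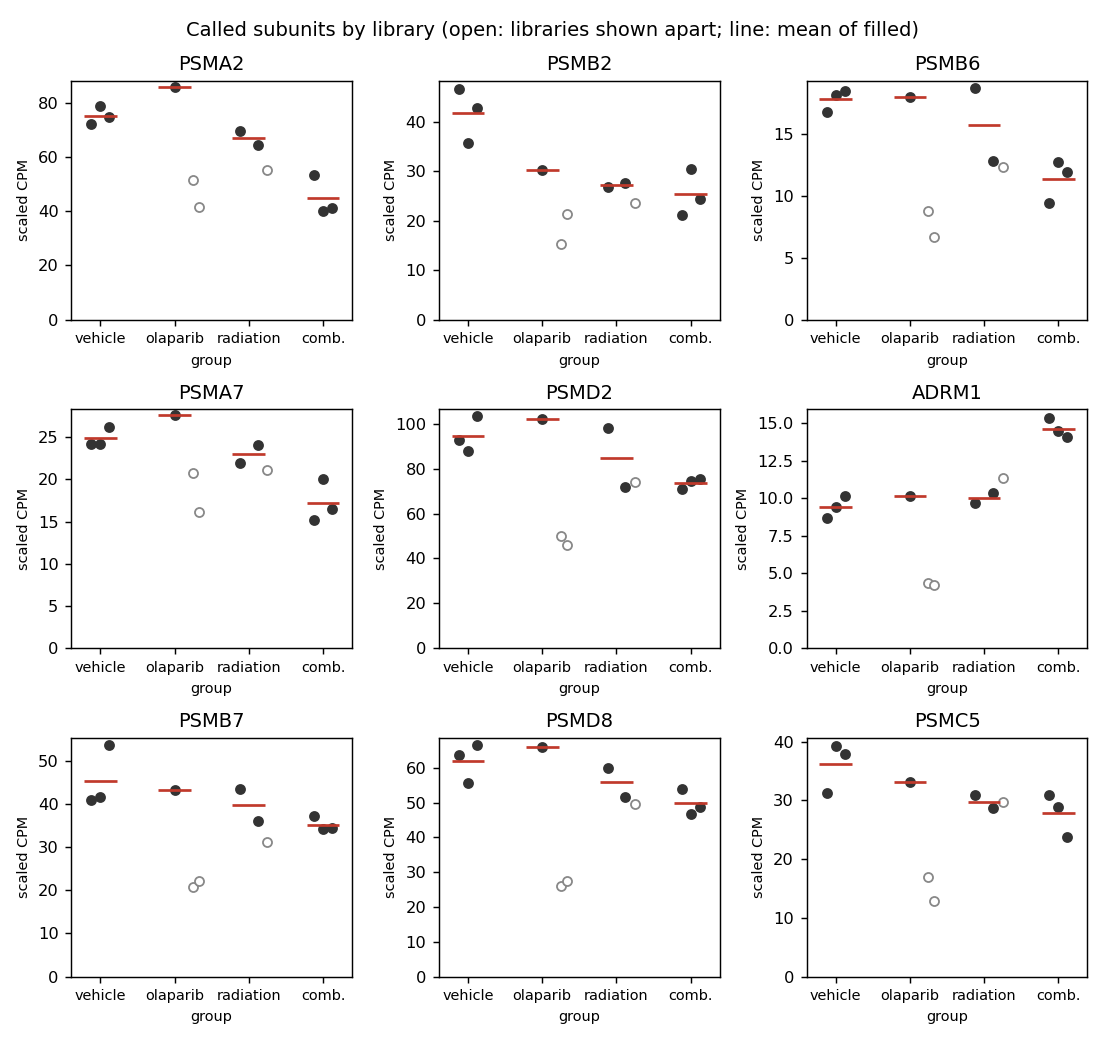
Scaled CPM (y axis, from 0) of the 9 subunit genes past the threshold in combination against vehicle, by group (x axis). Filled points are the 9 libraries, open points the 3 shown apart, and the line is the mean of the filled points; for PSMA2 the combination libraries lie at 40.2 to 53.3 and the vehicle libraries at 72.2 to 78.9.

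Among the 6 ATPases of the base, PSMC5 fell. It read 31.2, 39.3 and 37.8 scaled CPM in vehicle, 33.1 in olaparib, 30.9 and 28.7 in radiation and 31.0, 28.9 and 23.7 in combination. The highest combination library sits just under the lowest vehicle library, and the change of -0.38 (SE 0.11, adjusted p = 0.036) passed under 9 of 21 other settings. PSMC3 changed by -0.31 (SE 0.16, adjusted p = 0.39), and PSMC1, PSMC2, PSMC4 and PSMC6 had changes from -0.14 to 0.03 with adjusted p from 0.82 to 0.99.

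Of the 3 base subunits that are not ATPases, 1 fell and 1 rose. PSMD2, a large scaffold protein of the base that also takes up ubiquitin-like domains, read 92.8, 88.0 and 103.6 scaled CPM in vehicle, 102.2 in olaparib, 98.3 and 71.8 in radiation and 71.2, 74.6 and 75.6 in combination. It fell by 0.36 (SE 0.090, adjusted p = 0.0076), and its combination libraries lie close together, with the lower radiation library among them. PSMD1, the other scaffold, changed by -0.09 (adjusted p = 0.75). ADRM1, also called RPN13, is the ubiquitin receptor of the base that binds the deubiquitinase UCHL5. It read 8.70, 9.37 and 10.1 in vehicle, 10.1 in olaparib, 9.67 and 10.3 in radiation and 15.3, 14.4 and 14.1 in combination. No combination library overlaps any other group, and the open libraries of olaparib lie lowest at 4.33 and 4.18. ADRM1 rose by 0.63 (SE 0.18, adjusted p = 0.017) on 222 to 386 counts in each of the 9 libraries. Without vehicle replicate 1 or 2 or combination replicate 1 or 2 its change was 0.58 to 0.63 with adjusted p of 0.092, 0.067, 0.084 and 0.054.

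Among the 9 genes of the lid and PSMD4, PSMD8 fell. It read 63.7, 55.8 and 66.6 scaled CPM in vehicle, 66.1 in olaparib, 59.9 and 51.7 in radiation and 54.0, 46.7 and 48.8 in combination. The gap between the groups is narrow, and the change of -0.32 (SE 0.094, adjusted p = 0.031) passed under 11 of 21 other settings. PSMD14, the deubiquitinase of the lid, changed by -0.24 (adjusted p = 0.13) and PSMD13 by -0.24 (adjusted p = 0.20). PSMD4, a ubiquitin receptor, changed by -0.14, and PSMD3, PSMD6, PSMD7, PSMD11 and PSMD12 changed by -0.08 to 0.11, all with adjusted p above 0.5. SEM1, a small lid protein that the list of 32 does not hold, fell from 105 ± 2.2 (SD, n = 3) to 75.4 ± 6.1 (SD, n = 3), a change of -0.48 (SE 0.081, adjusted p = 1.2e-05).

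Stretches upstream of a RefSeq start of ADRM1, which rose, of PSMD8, which fell, and of the catalytic PSMB5 are shown to let the letters be compared. They come from RefSeq (GRCh38.p14), read 5′ to 3′ on the gene's strand, and hold no exon of GENCODE 29. Capitals mark the CCAAT box, the GC box GGGCGG and the pattern TGANNNNGC on either strand. That pattern takes in the core of the antioxidant response element but is looser, so a match need not be such an element. The ADRM1 stretch is chr20:62302756-62302895 on the plus strand, that of PSMD8 chr19:38374481-38374535 on the plus strand and that of PSMB5 chr14:23035311-23035390 on the minus strand. In GENCODE 29 the ADRM1 gene begins at 62302093, so the ADRM1 stretch lies within that gene model.
ADRM1: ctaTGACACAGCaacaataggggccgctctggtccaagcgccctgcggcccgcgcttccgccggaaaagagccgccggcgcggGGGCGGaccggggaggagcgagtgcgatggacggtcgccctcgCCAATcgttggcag
PSMD8: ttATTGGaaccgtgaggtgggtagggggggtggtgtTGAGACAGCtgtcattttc
PSMB5: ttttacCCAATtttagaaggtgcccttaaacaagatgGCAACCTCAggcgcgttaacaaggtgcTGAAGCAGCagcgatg
ADRM1, which rose, and PSMD8, 1 of the genes that fell, both hold CCAAT and TGANNNNGC. In the 250 bases before the start, PSMA2 and PSMC5, which also fell, hold CCAAT without TGANNNNGC. PSMB2 and PSMD2, which fell too, hold neither, and PSMA7, PSMB6 and PSMB7 matched no promoter. Of the 32 members, 27 matched a promoter in the RefSeq table. In the 250 bases before the start, CCAAT was found in 14 of 27 (51.9%, against 33.2% of all 27305 promoters), TGANNNNGC in 13 (48.1% against 35.3%), GGGCGG in 19 (70.4% against 42.9%), CCGGAAG in 6 (22.2% against 8.95%), TATAAA in 4 (14.8% against 11.3%) and TGACGT in 1 (3.70% against 7.38%). All 6 members with CCGGAAG, the letters of an ETS family site, are among the 17 cap genes matched, and none of the 10 core genes matched holds it. TATAAA was likewise found in 4 of the 17 cap and 0 of the 10 core genes, and TGACGT in 0 and 1. CCAAT, TGANNNNGC and GGGCGG were found in both parts. Whether core and cap differ in any motif was not tested. Both strands were searched, matches of different motifs may overlap, and a match is a description of letters.

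The difference between core and cap was at its lowest in the combination libraries. In each library the mean log2 CPM of the 18 cap genes was subtracted from that of the 14 core genes. This difference does not compare levels of genes, since transcript length enters it, but it can be followed from library to library. It was -0.42, -0.46 and -0.54 in the vehicle libraries, -0.49 in the olaparib library, -0.55 and -0.55 in the radiation libraries and -0.79, -0.63 and -0.65 in the combination libraries. The 3 combination libraries lie below all 6 others. In the libraries shown apart it was -0.39 and -0.30 for olaparib and -0.57 for radiation. The mean was -0.47 ± 0.06 (SD, n = 3) in vehicle, -0.55 ± 0.005 (SD, n = 2) in radiation and -0.69 ± 0.088 (SD, n = 3) in combination.

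Combination minus vehicle was -0.22 for this difference, made of -0.31 for the core and -0.09 for the cap, beside a pooled SD within groups of 0.067. The cap mean leaves out SEM1, a lid gene that changed by -0.48, and the difference with SEM1 in the cap was not computed. Radiation minus vehicle was -0.08, combination minus radiation -0.14 and olaparib minus vehicle -0.02. The contrasts share their vehicle or combination libraries. Leaving out any 1 gene gave -0.18 (without ADRM1) to -0.25 (without PSMB1) for combination minus vehicle, and over all settings it ran from -0.17 (without combination replicate 1) to -0.25. Since the score sums genes chosen with results known, no test is given.

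**Figure D3:**
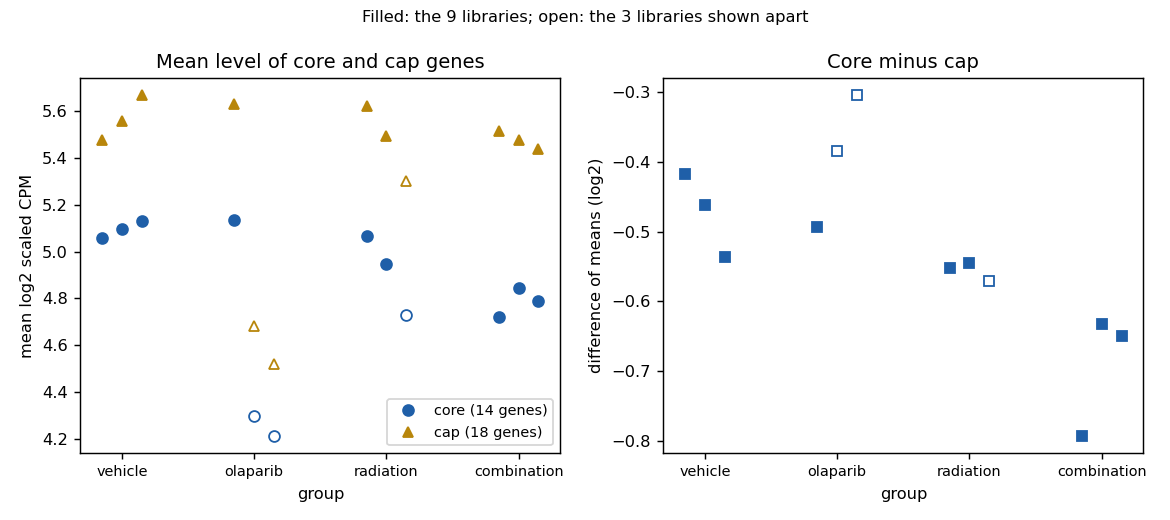
Mean log2 scaled CPM of the 14 core and 18 cap genes (left, y axis) and the core minus cap difference (right, y axis) in each library, by group (x axis), with the 3 libraries shown apart as open symbols. The combination libraries hold the lowest differences, from -0.79 to -0.63.

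The direction of the cap depends on how libraries are scaled. A change of scaling shifts core and cap genes alike, so it says nothing of the difference between them. With TMM the median change from vehicle to combination was -0.23 for the core and -0.08 for the cap. With library size alone the median over all genes tested moved from 0.02 to 0.22, and those of core and cap to -0.03 and 0.12. Under that scaling PSMA2 and PSMB2 fell and ADRM1 and PSMD12, a lid subunit, rose, while 7.35% of all genes tested rose and 1.03% fell. With library size over genes outside the mitochondrial genome the medians were -0.14 for the core, 0.00 for the cap and 0.10 for all genes. There PSMA2, PSMA7, PSMB2, PSMB6 and ADRM1 passed, while 924 of all 30967 genes tested rose and 601 fell. PSMA2, PSMB2 and ADRM1 thus passed under all 3 scalings with 1 direction each.

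**Figure D4:**
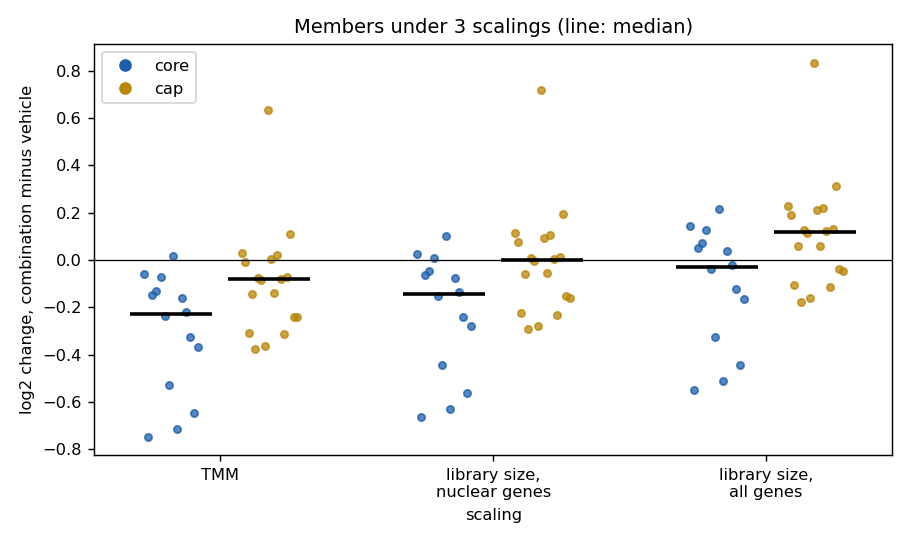
Change from vehicle to combination on the log2 scale (y axis) of the 14 core and 18 cap genes under 3 ways of scaling the libraries (x axis), with the median as a line. All genes shift together between scalings, and the cap median moves from -0.08 with TMM to 0.12 with library size alone.

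All 14 core genes have a coding sequence under 1000 bases, as do 2 of the 18 cap genes, so place in the particle and coding length cannot be told apart. Over the abundant protein-coding genes, 358 of 2076 under 1000 bases fell in combination against vehicle (17.2%) and 541 of 5512 longer ones (9.81%), with medians of -0.12 and -0.03. Among the members 5 of 16 short genes fell (31.2%) and 3 of 16 long ones (18.8%), with medians of -0.23 and -0.08.

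Radiation alone asks what 4 Gy did without the drug. Of the 32 members PSMB2 fell, by 0.61 on the log2 scale (SE 0.13, adjusted p = 0.0046 by edgeR), and none rose, where 0.678% of all genes tested fell and 0.42% rose. DESeq2 and limma-voom each called the same count, 1 lower and 0 higher. The 2 radiation libraries, at 26.8 and 27.6 scaled CPM, lie below all 3 vehicle libraries. Radiation 3, shown apart, read 23.6. The summed level of all 32 members was also low in it, at 1326 scaled CPM against 1551 to 1673 in vehicle. The call was lost without vehicle replicate 1, radiation replicate 1 or radiation replicate 2 (adjusted p of 0.067, 0.13 and 0.083), with changes of -0.53 to -0.62. The core and cap medians were -0.12 and -0.02. PSMA1 had the largest positive change, 0.25 (SE 0.11, adjusted p = 0.40).

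Between combination and radiation, which both received 4 Gy, PSMA2 fell by 0.58 (SE 0.10, adjusted p = 3.8e-04) and no other member passed, where 0.426% of all genes tested fell and 0.142% rose. Leaving out either radiation library left 1 in that group. Without radiation replicate 1 the change of PSMA2 was -0.52 and the call was lost. The members' median was -0.06 without radiation replicate 1 and -0.26 without radiation replicate 2, against 0.03 and 0.06 for all genes. The change was negative in 27 of 32 members, against 14363 of all 30967 genes tested and 8285 of the 16327 protein-coding genes tested. The members' median was -0.16, against 0.03 for all genes and -0.005 for the protein-coding ones. ADRM1 changed by 0.55 (SE 0.20, adjusted p = 0.24), PSMB6 by -0.47 (adjusted p = 0.29), PSMA7 by -0.41 (adjusted p = 0.23) and PSMD14 by -0.36 (adjusted p = 0.077). PSMB2, which had fallen with radiation, differed by -0.10 here (SE 0.13, adjusted p = 0.90).

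For olaparib alone only 1 library entered the fit, which is then assumed to vary like the other groups. No member passed, by edgeR, DESeq2 or limma-voom, where 0.0581% of all genes tested fell and 0.00969% rose. At an unadjusted p under 0.05 stood PSMB2 (change -0.46), PSMA6 (-0.42) and PSMB4 (0.30). The core and cap medians were 0.04 and 0.07. With all 12 libraries the members' median was -0.55, and the summed member levels of the 2 olaparib libraries shown apart were 901 and 826 scaled CPM against 1666 in olaparib replicate 1.

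The term that compares the effect of olaparib with and without radiation passed for 1 member. For PSMA2 it was -0.77 (SE 0.16, adjusted p = 0.011): its mean went from 75.3 to 85.8 with the drug alone and from 67.0 to 44.9 scaled CPM between irradiated cells without and with the drug. Over all genes tested 0.103% passed with a negative and 0.0969% with a positive term. The term rests on 1 olaparib library, and it did not pass without radiation replicate 1 (-0.70, adjusted p = 0.13), without combination replicate 3 (-0.72, adjusted p = 0.056), with a replicate block (-0.64, adjusted p = 0.13), or with all 12 libraries without (-0.14, adjusted p = 0.81) and with the olfactory receptor covariate (-0.68, adjusted p = 0.26).

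The genes around the particle were read from lists chosen by role. Of the genes that control proteasome transcription, NFE2L1 fell from vehicle to combination by 0.24 (SE 0.072, adjusted p = 0.037), with 265.6 ± 19.9 in vehicle and 225.4 ± 15.4 scaled CPM in combination (SD, n = 3 each). This call held under 10 of 21 other settings, and the change was -0.03 with library size only (adjusted p = 0.88), -0.17 without vehicle replicate 3 (adjusted p = 0.30) and -0.20 without combination replicate 1 (adjusted p = 0.22). NFE2L2, the factor of the oxidative stress response, fell by 0.29 (SE 0.074, adjusted p = 0.0076). Its call held under 15 of 21 other settings, with a change as small as -0.09. DDI2, the protease that cuts NFE2L1 into its active form, rose by 0.38 (SE 0.10, adjusted p = 0.0098), from 36.6 ± 2.5 to 47.8 ± 1.8. NGLY1, which removes sugar chains from NFE2L1, rose with radiation by 0.50 (SE 0.10, adjusted p = 0.0013) and changed by 0.26 in combination (adjusted p = 0.095). AKIRIN2, which brings proteasomes into the nucleus, did not pass in either (0.20 and 0.12).

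None of the 9 assembly chaperones and none of the 5 activators and inhibitor passed in combination against vehicle by edgeR, DESeq2 or limma-voom. By edgeR 3.26% of all genes tested fell and 1.53% rose, so a count of 0 in lists this short does not set these genes apart. At an unadjusted p under 0.05 stood PSMD5 alone, a chaperone of the base, with a change of -0.31 (adjusted p = 0.093). POMP, the maturation factor of the core, changed by -0.17 (SE 0.13), and PSMG1 and PSMG2, which pair up to build the alpha ring, by 0.26 and -0.08. The activators PSME1, PSME2, PSME3 and PSME4 changed by 0.03, 0.21, 0.23 and 0.01 and the inhibitor PSMF1 by -0.04. Whether these lists differ from the subunit genes was not tested.

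The alternative catalytic subunits, which interferon induces and which replace PSMB6, PSMB7 and PSMB5 in the immunoproteasome, were scarce. PSMB8 held 0 to 12 counts in each of the 9 libraries and 16 to 38 in the 3 shown apart. PSMB9 read 3.41 to 7.62 scaled CPM and PSMB10 1.14 to 5.37, and their changes in combination were 0.30 and 0.28 (adjusted p = 0.75 and 0.88). PSMA8, the alpha subunit of the testis, was not tested, with 0 to 6 counts, nor was PSMB11 of the thymus, with 0 to 3.

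Of the 4 genes in the list for the supply and activation of ubiquitin, 2 fell in combination against vehicle. Of all genes tested 3.26% fell, and of the abundant protein-coding genes 11.9%. RPS27A, which makes ubiquitin fused to a ribosomal protein, fell by 0.66 (SE 0.072, adjusted p = 6.4e-11). UBA1, the main activating enzyme, fell by 0.27 (SE 0.079, adjusted p = 0.029). The call of UBA1 held under 14 of 21 other settings, with a change as small as -0.07. RPS27A read 211.5, 211.5 and 222 scaled CPM in vehicle, 246 in olaparib, 208 and 183 in radiation and 137, 139 and 131 in combination. Among the 9 libraries its combination libraries lie below all the rest and the olaparib library is the highest. Between combination and radiation RPS27A fell by 0.53 (adjusted p = 3.6e-05). UBB, a polyubiquitin gene, changed by -0.16 (adjusted p = 0.42) and -0.12 (adjusted p = 0.77) in these 2 comparisons.

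Of 16 shuttles, deubiquitinases and ligases that act at the proteasome, ZFAND5, a stimulator of the 26S particle, and VCP, the ATPase that extracts ubiquitylated proteins, fell by 0.48 and 0.30 in combination (adjusted p = 6.9e-06 and 0.044), and DDI2 rose. Over all genes tested 3.26% fell and 1.53% rose. The call of VCP held under 7 of 21 other settings, with changes of -0.40 to -0.10. UCHL5 and USP14, deubiquitinases of the cap, changed by 0.15 and 0.08 (adjusted p = 0.37 and 0.81), the former being the partner of ADRM1.

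Genes of other large complexes had changes in a like range. The counts that follow stand beside 3.26% of all genes tested and 11.9% of the abundant protein-coding genes that fell. Of the COP9 signalosome, whose subunits resemble those of the lid, 2 of 9 fell (COPS5 by 0.42 and COPS6 by 0.38, adjusted p = 0.0057 and 0.0027), with a list median of -0.22. Of the CCT chaperonin, a folding machine of stacked rings, CCT4, CCT7 and CCT8 fell out of 8, with a median of -0.21 and all 8 changes negative. Of 11 heat shock genes HSPA8, HSP90AA1, HSPD1 and HSPE1 fell, by 0.55, 0.48, 0.24 and 0.35. The median of that list was -0.125, and 5 of its 11 changes were positive. Of these calls, that of HSPE1 held under 8 of 21 other settings, that of CCT8 under 10 and those of HSPD1 and CCT4 under 14, with changes as small as -0.15, -0.05, -0.04 and -0.07. HSP90AA1 also fell with radiation (-0.38, adjusted p = 6.3e-04) and in the olaparib library (-0.51, adjusted p = 0.0018). Over these 9 lists, the genes past the threshold with radiation against vehicle were NGLY1, which rose, and HSPA8 and HSP90AA1, which fell. Between combination and radiation they were RPS27A and ZFAND5, which fell, and between olaparib and vehicle HSP90AA1. The core median of -0.23 is close to those of the COP9 and CCT lists, and the cap median of -0.08 lies nearer to that of all abundant genes.

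**Figure D5:**
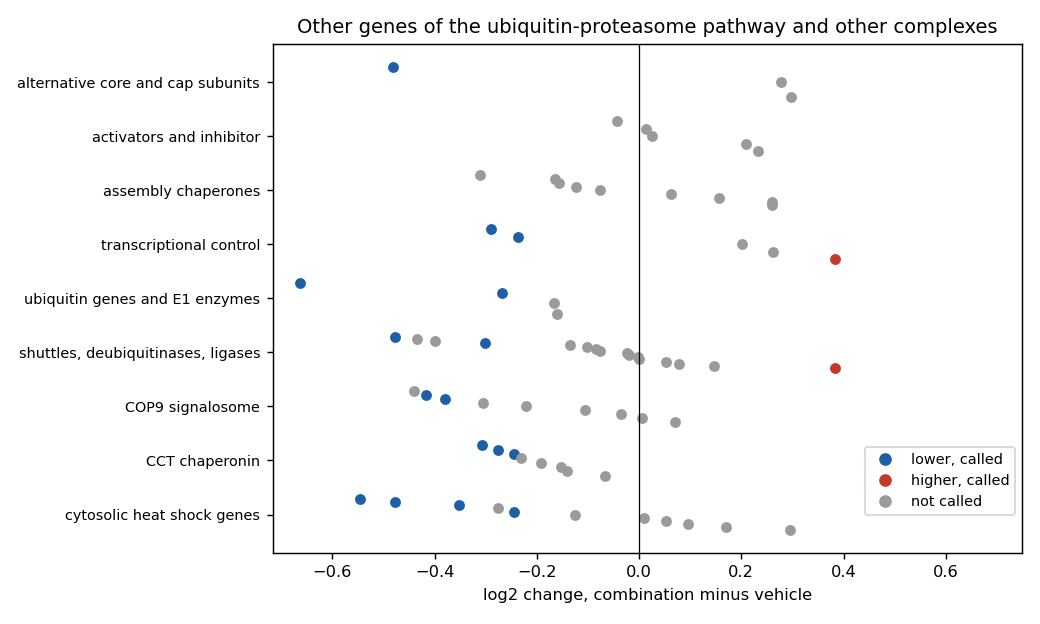
Change from vehicle to combination on the log2 scale (x axis) of the tested genes of 9 lists around the proteasome (y axis), without PSMB8, whose counts were too few. Blue points fell and red points rose at an adjusted p under 0.05, and DDI2 stands in 2 lists. No activator or assembly chaperone passed, where 3.26% of all genes tested fell and 1.53% rose.

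Annotated pseudogenes held 5.35% of the count of PSMA6, 1.49% of PSMC1, 1.38% of PSMA1, 1.23% of PSMA2 and under 1% of every other member. Values that are not whole numbers, a mark of divided reads, were also found in members without such copies: none of the 12 values of PSMB2 was whole. The part of divided reads in the changes was not tested. By GENCODE 29, exons on the opposite strand cover 75.8% of the exonic bases of PSMC1 (NRDE2) and 30.7% of PSMD7 (a processed transcript). They cover 19.5% of PSMC5 (FTSJ3), 19.5% of PSMA2 (a processed pseudogene), 11.4% of ADRM1 (LAMA5) and 10.8% of PSMD1. The library kit keeps strand, but whether the counting used it is not given in the sources used here. NRDE2, FTSJ3 and LAMA5 did not pass in combination against vehicle (-0.14, 0.19 and -0.10). PSMA2 also shares 24 exonic bases with MRPL32 on the opposite strand, which fell (-0.39, adjusted p = 2.8e-04). Like PSMA1 (24.7%) and PSMA6 (14.1%), PSMA2 shares exonic bases (14.6%) with another gene model on its own strand, between which reads could be divided.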

How the data were processed

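Per the labels' protocols, total RNA libraries were made with a stranded TruSeq kit. The authors deposited 1 table of estimated counts for 60649 gene rows in 12 libraries; kallisto 0.46.1 and DESeq2 are named in the submitters' processing notes, and the transcriptome release is not given in the sources used here. Of the deposited estimated counts 68.8% were whole numbers (within 1e-06), and they were rounded. The 44 rows of the Y copy of the pseudoautosomal region were added to their X rows, which left 60605 genes. In these estimated counts transcripts of a gene are summed, and reads shared between genes are divided by the authors' model.

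Library columns were matched to samples by title. The fit used edgeR 4.0.16 (R 4.3.3) on 9 libraries with 1 mean per group: filterByExpr, TMM scaling, and the quasi-likelihood test with robust dispersions, whose p-values were adjusted by Benjamini-Hochberg over 30967 genes. SE is the log2 change divided by the root of F. Log2 CPM used a prior count of 2. limma-voom (limma 3.58.1), DESeq2 1.42.0, other scalings and filters, all 12 libraries and leaving out each library were alternatives; 2 scalings, and the alternatives of the interaction term, were added after seeing the data. The edgeR script was tested on simulated data; it missed a preset recovery with gene-wise dispersions in the simulation and met it with trended ones, a change made after that miss. Depths were 19441478 to 38804959 counts, and SE is larger for genes of lower counts.

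The members and the lists were chosen with earlier results of these data known. All 32 members could be named; of the other lists, those past the threshold in any comparison and a set of named genes (PSMB8, PSMB9, PSMB10, PSMA8, SEM1, PSME1 to PSME4, PSMF1, POMP, NFE2L1, NFE2L2, UBB) whatever their values. PSMD5, PSMG1, PSMG2, PSMB11, AKIRIN2, UCHL5, USP14, NRDE2, LAMA5, FTSJ3 and MRPL32 were named after their values were seen. Some genes of the lists are not reported here. Deviations of same-numbered libraries correlated at -0.047 to 0.0056. These values cannot exclude that replicate numbers pair the libraries, since groups are small and the deviations of the 2 radiation libraries mirror each other. No pair of libraries within a group agreed within sampling noise.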

Additional observations from a re-analysis of the deposited data

Results flagged for a closer look

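For PSMA2 and RPS27A the effect of olaparib differed between unirradiated and irradiated cells by the interaction term of the edgeR fit over 9 libraries. The term was -0.765 for PSMA2 (adjusted p = 0.011) and -0.719 for RPS27A (adjusted p = 6.0e-04), on the log2 scale. RPS27A went from 215 scaled CPM in vehicle to 246 in the olaparib library and from 196 in radiation to 136 in combination. Only 1 olaparib library enters these terms. With all 12 libraries they were -0.14 for PSMA2 and -0.04 for RPS27A, neither past the threshold.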

How the results depend on the processing

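For combination against vehicle the 9 members past the threshold became 0 with all 12 libraries, 3 with all 12 and the olfactory receptor covariate, 4 with library size only, 5 with library size over genes outside the mitochondrial genome, and 5 to 9 when 1 library was left out (5 without vehicle replicate 3, combination replicate 1 or combination replicate 2). With all 12 libraries 1 of all genes tested rose and 0 fell, by edgeR; 4 members stood at an unadjusted p under 0.05. DESeq2 gave 9 and limma-voom 6. For radiation against vehicle the 1 member became 0 with all 12 libraries, with or without the covariate, 2 with library size only, and 0 to 1 when 1 library was left out. For combination against radiation the 1 member became 0 with all 12 libraries, 2 with no count filter and 2 with DESeq2. When 1 library was left out it stayed at 1 to 2, except that none passed without radiation replicate 1 and more without radiation replicate 2. Either leaves 1 radiation library. The core minus cap difference between olaparib and vehicle, -0.022, became 0.078 with all 12 libraries. The causes were not tested. With a replicate block the count for combination against vehicle was still 9; the interaction term of PSMA2 was -0.64 and did not pass (adjusted p = 0.13), and DESeq2 gave no adjusted p for it. No gene past the threshold changed direction in the 4 comparisons under any setting; members not past it did, such as PSMA1, PSMA4, PSMD1 and PSMD4 in combination against vehicle, which changed by 0.14, 0.07, 0.12 and 0.06 with library size only. ADRM1 and PSMB5, near 10 CPM, rest on 180 to 580 counts a library.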
